A study of Mus musculus with 12 samples.

Results

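The nuclear genes that encode the proteins of the mitochondrial ribosome were followed in mouse lymph node cells cultured for 4 h without or with an antigenic peptide. The genes were taken by name: every gene with a single symbol that starts with Mrpl or Mrps and a digit, which gave 76 of the 18193 genes measured. Of these, 47 carry names of the large subunit (Mrpl) and 29 carry names of the small subunit (Mrps). The rule used names only, but the family was chosen with earlier results of these data known. Each gene was read from its brightest probe set, which is a group of short array probes against 1 transcript. Mrpl30 and Mrpl53 were measured only by probe sets that also name another gene, and they were not used.

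All mice were of the P14-TCR strain, whose T cells carry a transgenic receptor for the gp33-41 peptide. There were 3 wild-type mice and 3 mice null for protein kinase D2 (PKD2, gene Prkd2), a kinase that antigen receptor signalling switches on. Lymph node cells of each mouse gave 1 array after 4 h of culture without peptide and 1 array after 4 h with the peptide at 62.5 ng/ml, so the 12 arrays formed 4 groups of 3. The labels give no age or sex of the mice, do not say in which cells Prkd2 was deleted, and do not mention a sort, so the RNA is that of all cells of the culture. In such bulk RNA, fewer cells of a type and less RNA per cell cannot be told apart.

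Array medians lay between 4.66 and 4.72 on the log2 scale. Prkd2 averaged 10.17 ± 0.17 (SD, n = 3 in every group) in wild-type cells without peptide and 6.00 ± 0.29 in null cells, an 18-fold lower signal. The mean signal of 7 T cell markers lay between 11.03 and 11.11 in the 4 groups, although single markers changed with peptide in wild-type cells (2 rose and 3 fell). The CD8 T cell markers Cd8a and Cd8b1 averaged 11.37 without and 10.52 with peptide in wild-type cells and 11.18 and 10.71 in null cells, with 1 of the 2 called lower in either genotype. Cd4 read 5.76 to 5.97. Of 4 stroma markers, averaging 5.13 without and 4.81 with peptide in wild-type cells, Col1a1 and Col3a1 read at most 3.97 and the endothelial gene Pecam1 was called lower in both genotypes (-1.48 and -1.52). A list of 11 B cell markers averaged 8.89 ± 0.041 and 8.28 ± 0.10 in wild-type cells without and with peptide, and 9.59 ± 0.38 and 8.98 ± 0.40 in null cells, where null mouse 2 was highest on both of its arrays (10.02 and 9.44). The same mouse had the lowest T cell marker means of the null mice, 10.92 without and 10.75 with peptide. Its means of Cd8a and Cd8b1 were also the lowest of the null mice (10.71 and 10.49).

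Mitochondria translate the few messages of their own genome on a ribosome of their own, and those messages encode subunits of the respiratory chain and of ATP synthase. The ribosomal RNAs come from mitochondrial DNA, but every protein of the particle is encoded in the nucleus, made in the cytosol and imported. The small subunit holds the messenger RNA and decodes it, and the large subunit joins the amino acids and passes the chain into an exit tunnel that ends at the inner membrane. Some of the proteins have counterparts in bacteria and others are found only in mitochondria. Resting T cells grow and build up their mitochondria after they meet antigen.

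With peptide, 54 of the 76 genes rose in wild-type cells and 4 fell. A call was an adjusted p under 0.05 in limma (moderated test with Benjamini-Hochberg adjustment over all 45037 probe sets). Of all genes, 15.1% rose and 20.4% fell in the same fit. The shares of all genes given here and below were not matched for signal. All 76 genes passed a filter on dim probe sets (a group mean of at least 6), as did 16980 of the 45037 probe sets. The mean signal without peptide in wild-type cells was 6.20 over all genes and 8.99 over the 76. The rises comprised 32 of 47 large-subunit genes and 22 of 29 small-subunit genes. The median change was 0.47 log2 units for the large subunit and 0.62 for the small subunit, against 0.01 for all genes. A rise of at least 1 log2 unit was seen in 16 of the 76 genes and in 1031 of all 18193.

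The small subunit held the largest rises. Mrps6, a counterpart of a bacterial protein at the platform of the small subunit, read 8.71, 8.55 and 8.54 without peptide in the 3 wild-type mice and 11.04, 11.26 and 11.03 with it. In null mice it read 8.57, 8.84 and 8.56 without peptide and 10.74, 10.80 and 10.96 with it. All stimulated arrays lay more than 1 log2 unit above all unstimulated arrays, in both genotypes. The fitted rise was 2.51 log2 units in wild-type cells (5.70-fold, SE 0.11, limma adjusted p = 5.5e-09) and 2.18 in null cells (4.52-fold, limma adjusted p = 3.3e-08), and a second, dimmer probe set of the gene gave 2.56 and 2.09.

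Mrps28, another small-subunit protein, rose 4.17-fold in wild-type cells. Its signals were 7.78, 7.97 and 7.70 without peptide and 9.90, 10.00 and 9.74 with it. In null cells they were 8.09, 8.11 and 8.02, then 9.83, 9.66 and 10.01, a 3.38-fold rise. The stimulated and unstimulated arrays did not overlap in either genotype.

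Mrps2, a counterpart of bacterial S2, went from 7.76, 7.78 and 7.76 to 9.35, 9.09 and 9.17 in wild-type mice, a rise of 1.44 log2 units. Its 3 null mice read 8.02, 8.03 and 8.03 and then 9.29, 9.12 and 9.32, a rise of 1.22. Its second probe set also rose, by 1.32 in wild-type and 0.89 in null cells. Mrps10 and Mrps27 completed the leading small-subunit genes in wild-type cells with rises of 1.15 and 1.14. Mrps27, a protein with pentatricopeptide repeats of the kind that bind RNA, had the lowest signal of the 76 probe sets used, 6.34 ± 0.12 without peptide, although signals of different probe sets do not rank genes by abundance. In null cells Mrps10 rose by 0.79, Mrps5, a counterpart of a bacterial protein at the messenger RNA entrance, by 0.75, and Mrps27 by 0.64.

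**Figure D1:**
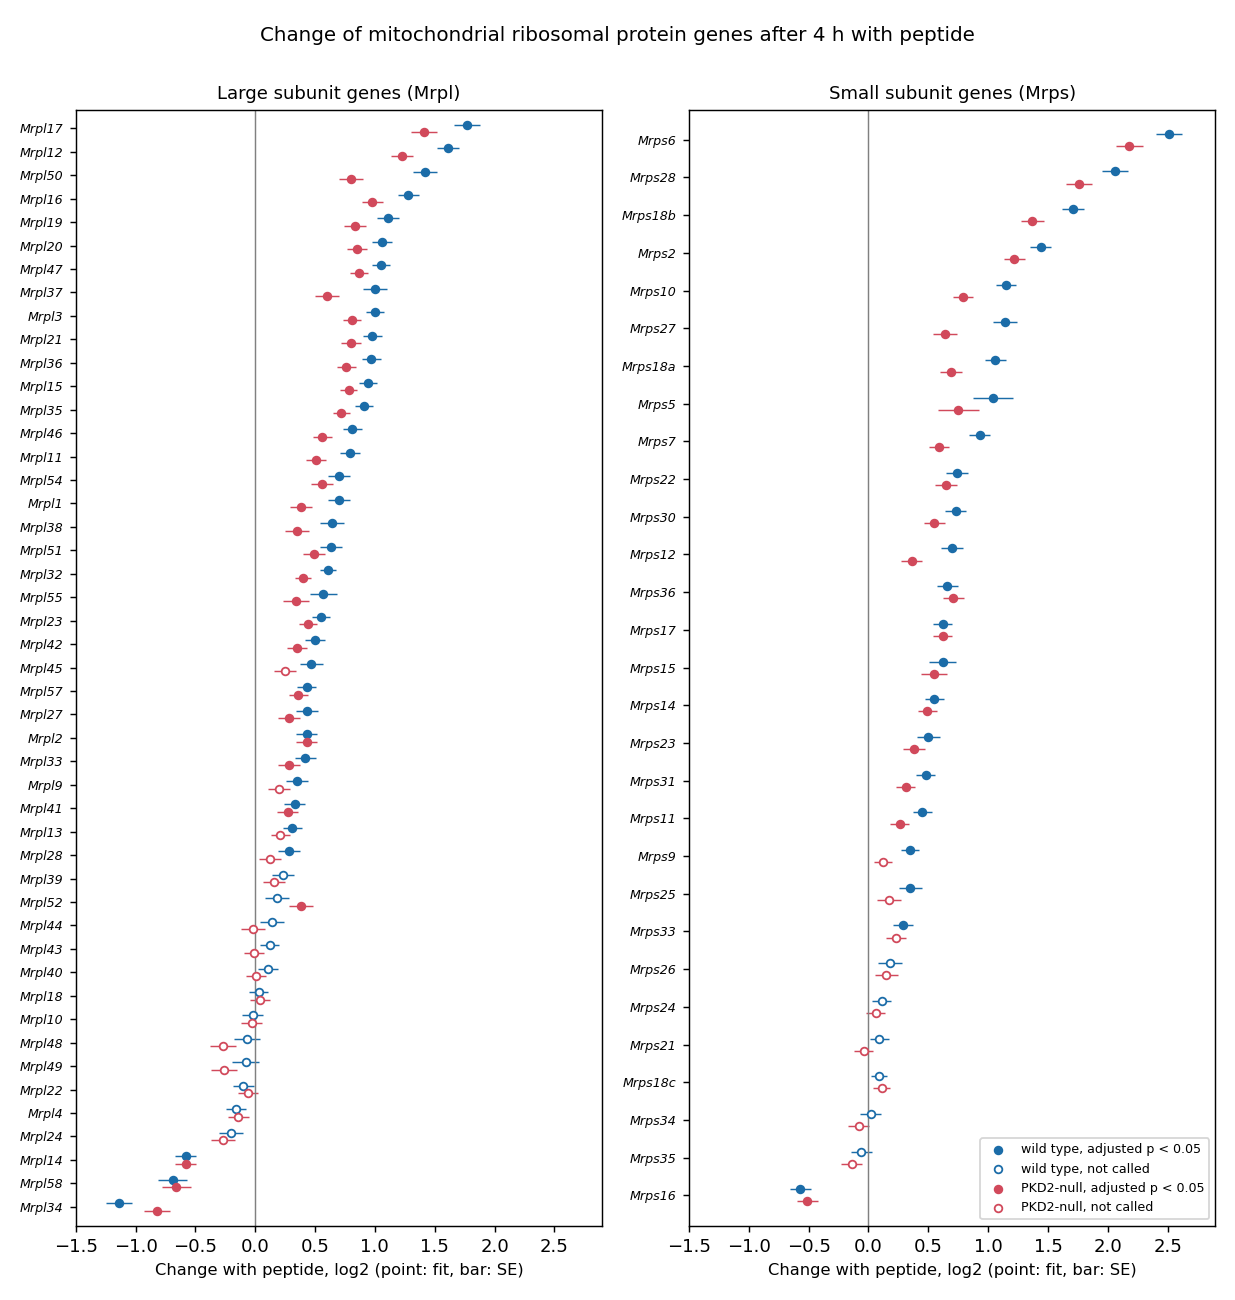
Change with peptide (log2, with minus without) of the 47 large-subunit and 29 small-subunit genes, ordered by the wild-type change; points are the fitted changes in wild-type (blue) and PKD2-null (red) cells over 3 mice each, bars are standard errors, and filled points passed an adjusted p of 0.05 in limma. Most points lie right of 0 in both genotypes, Mrps6 and Mrps28 lie farthest right, and Mrpl34, Mrpl58, Mrpl14 and Mrps16 lie left of 0 as filled points.

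Among large-subunit genes Mrpl17 and Mrpl12 rose most. Mrpl12 is the counterpart of the bacterial L7/L12 protein of the flexible stalk that receives translation factors, and its protein also binds the mitochondrial RNA polymerase. It read 9.17, 9.33 and 9.22 without peptide and 10.83, 10.97 and 10.76 with it in wild-type mice, and 9.54, 9.48 and 9.39 against 10.69, 10.60 and 10.82 in null mice. The rise was 1.61 log2 units (3.06-fold, SE 0.091, limma adjusted p = 4.7e-08) in wild-type and 1.23 (2.35-fold) in null cells. The other stalk genes differed from it: Mrpl11, part of the stalk base, rose by 0.79 and 0.51, and Mrpl10, to which Mrpl12 is anchored, changed by -0.02 and -0.03 (limma adjusted p = 0.94 and 0.87).

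Mrpl17, whose bacterial counterpart lies near the exit of the tunnel, read 8.99, 9.08 and 9.11 without and 10.88, 10.88 and 10.72 with peptide in wild-type mice. Null mice read 9.28, 9.49 and 9.04, then 10.69, 10.63 and 10.73. The groups with and without peptide did not overlap, and the rises were 1.77 log2 units (3.40-fold) and 1.41 (2.66-fold). The rise rests on a probe set whose name marks several transcripts of the gene, since its other probe sets were dim (means of 4.75 and 3.91 without peptide) and changed by 0.11 and 0.44 in wild-type cells.

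Mrpl50, a protein of the large subunit that bacteria lack, rose by 1.42 in wild-type cells, from 7.91, 7.82 and 8.03 to 9.24, 9.35 and 9.44. Null cells went from 8.30, 8.19 and 7.94 to 8.93, 9.00 and 8.91, a rise of 0.80, and all 3 stimulated null arrays lay below all 3 stimulated wild-type arrays. Mrpl16, whose bacterial counterpart sits near the peptidyl transferase centre, rose by 1.28 and 0.98. Mrpl19 rose by 1.11 and 0.83 and Mrpl20 by 1.06 and 0.85. Mrpl47, the counterpart of bacterial L29 at the tunnel exit, rose by 1.05 and 0.87.

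**Figure D2:**
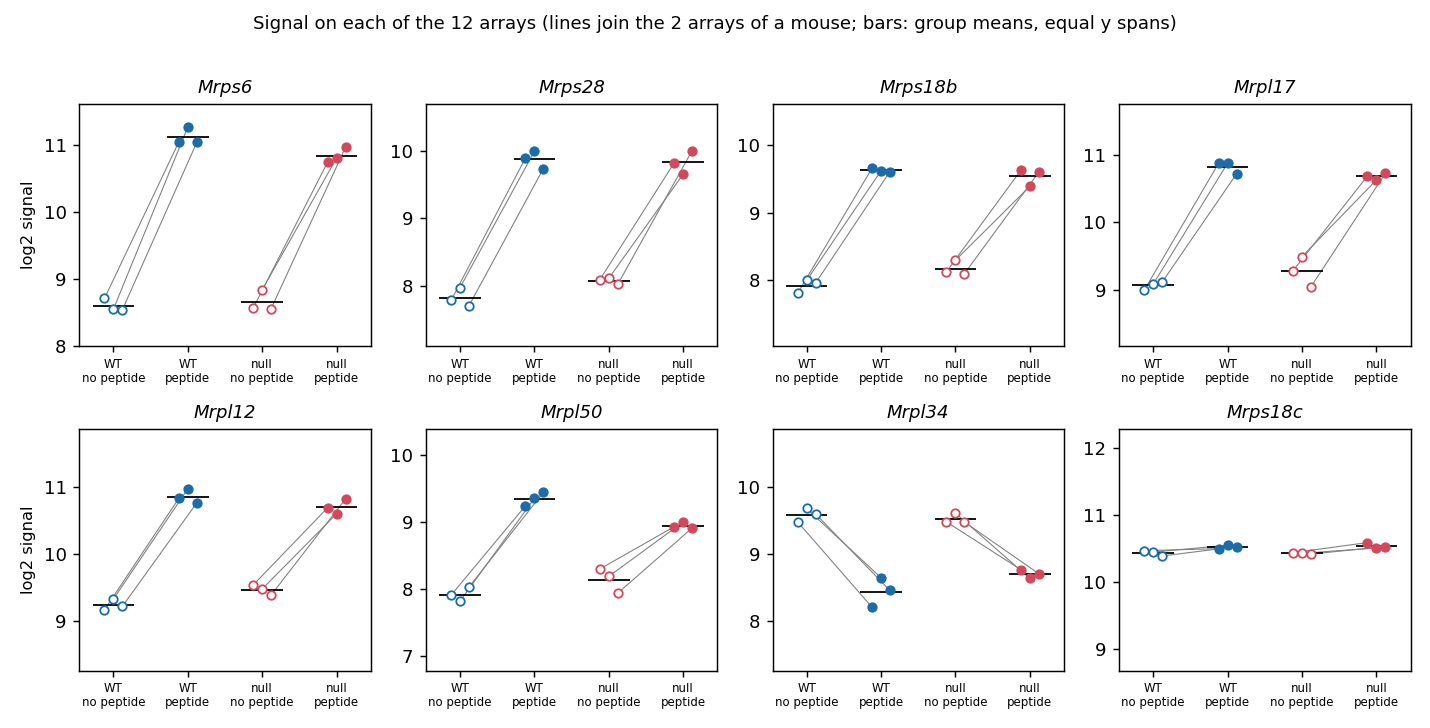
Log2 signal of 8 genes on each of the 12 arrays, for wild-type (blue) and PKD2-null (red) mice without (open) and with (filled) peptide; grey lines join the 2 arrays of a mouse, black bars are means of 3 mice, and every panel spans the same range. Mrps6, Mrps28, Mrps18b, Mrpl17, Mrpl12 and Mrpl50 rise in every mouse, Mrpl34 falls in every mouse, and Mrps18c stays between 10.39 and 10.59.

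Mrps18a, Mrps18b and Mrps18c name related proteins that descend from a single bacterial protein, S18, and they did not move together. Mrps18b went from 7.80, 7.99 and 7.95 to 9.66, 9.62 and 9.61 in wild-type mice and from 8.12, 8.29 and 8.09 to 9.63, 9.39 and 9.60 in null mice. Its rises were 1.71 log2 units (3.28-fold, SE 0.093, limma adjusted p = 3.6e-08) and 1.37 (2.59-fold). Mrps18a, whose protein is placed in the large subunit in mammalian structures despite its name, rose by 1.06 and 0.69. Mrps18c changed by 0.09 and 0.11 (limma adjusted p = 0.40 and 0.31), with wild-type signals of 10.47, 10.45 and 10.39 without and 10.50, 10.55 and 10.53 with peptide.

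Promoter windows were read from RefSeq (build GRCm38.p6), each holding 250 bases before and 50 after the start of a transcript, for 67 of the 76 genes. They were searched on both strands for 4 short motifs: the core of nuclear respiratory factor 1 (NRF1, GCGCATGCG), the ETS core bound by GABP (CCGGAAGT), the E-box bound by Myc and related factors (CACGTG) and a core of YY1 (AAGATGGCG). The following windows belong to the genes with the largest wild-type rise for each motif and to the S18-related genes that contrast in their response. They are written 5′ to 3′ on the strand of the gene, with the matches in capitals.
Mrpl17 (GRCm38.p6, chr7:105811038-105811337, minus strand): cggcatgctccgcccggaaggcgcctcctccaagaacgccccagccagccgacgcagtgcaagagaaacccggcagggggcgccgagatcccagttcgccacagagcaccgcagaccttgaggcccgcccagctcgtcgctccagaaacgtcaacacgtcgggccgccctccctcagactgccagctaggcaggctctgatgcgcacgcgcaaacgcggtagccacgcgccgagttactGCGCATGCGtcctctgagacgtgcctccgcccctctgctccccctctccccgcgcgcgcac
Mrps18b (GRCm38.p6, chr17:35916391-35916690, minus strand): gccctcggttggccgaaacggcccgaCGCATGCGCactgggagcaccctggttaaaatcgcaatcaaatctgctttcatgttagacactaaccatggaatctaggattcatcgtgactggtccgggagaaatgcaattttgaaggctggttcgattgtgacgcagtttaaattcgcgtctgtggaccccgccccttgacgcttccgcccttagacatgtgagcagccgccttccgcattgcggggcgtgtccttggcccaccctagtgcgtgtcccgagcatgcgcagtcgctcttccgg
Mrps27 (GRCm38.p6, chr13:99344536-99344835, plus strand): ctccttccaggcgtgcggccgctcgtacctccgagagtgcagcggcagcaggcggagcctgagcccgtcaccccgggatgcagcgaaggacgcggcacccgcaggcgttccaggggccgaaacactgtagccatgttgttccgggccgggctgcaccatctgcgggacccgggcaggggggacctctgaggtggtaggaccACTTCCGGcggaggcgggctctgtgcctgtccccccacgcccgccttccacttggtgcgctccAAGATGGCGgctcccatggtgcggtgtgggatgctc
Mrpl20 (GRCm38.p6, chr4:155802628-155802927, plus strand): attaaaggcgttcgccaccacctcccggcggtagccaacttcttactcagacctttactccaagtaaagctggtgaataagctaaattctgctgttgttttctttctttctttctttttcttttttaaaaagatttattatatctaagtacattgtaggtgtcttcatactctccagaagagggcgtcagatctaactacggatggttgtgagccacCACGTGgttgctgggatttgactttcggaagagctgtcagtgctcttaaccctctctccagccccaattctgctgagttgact
Mrps18a (GRCm38.p6, chr17:46110754-46111053, plus strand): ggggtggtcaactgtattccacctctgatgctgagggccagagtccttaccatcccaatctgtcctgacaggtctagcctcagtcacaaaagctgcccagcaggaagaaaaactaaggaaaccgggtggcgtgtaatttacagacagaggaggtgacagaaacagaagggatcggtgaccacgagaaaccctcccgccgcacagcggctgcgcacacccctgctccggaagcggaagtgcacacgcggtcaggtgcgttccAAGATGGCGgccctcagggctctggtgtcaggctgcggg
Mrps18c (GRCm38.p6, chr5:100798509-100798808, plus strand): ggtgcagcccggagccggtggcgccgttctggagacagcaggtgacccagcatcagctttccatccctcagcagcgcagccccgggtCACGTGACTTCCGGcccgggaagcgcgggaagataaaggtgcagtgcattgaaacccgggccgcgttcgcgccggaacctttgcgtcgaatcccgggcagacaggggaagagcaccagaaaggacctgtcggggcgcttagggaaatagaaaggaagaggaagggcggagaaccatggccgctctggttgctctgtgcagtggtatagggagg

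Mrpl17 and Mrps18b hold the NRF1 letters in these windows, on opposite strands. Mrps27 holds the GABP and the YY1 letters, and the YY1 match lies 265 bases into the window, just after the transcript start. Mrpl20 holds an E-box, Mrps18a a YY1 match at base 262, and Mrps18c an E-box at base 88 that adjoins a GABP match at base 94. Mrps18c holds 2 of the 4 motifs and was the S18-related gene not called, while Mrps18a and Mrps18b hold 1 each. The S18-related windows were printed because the responses contrast, and a link between motifs and response was not tested.

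The NRF1 letters were in the windows of 7 of the 67 genes (10.4%), against 3.09% of the 14452 array genes with a window and 1.75% of all 32851 RefSeq windows. The GABP letters were in 12 genes (17.9%, against 6.62% of array genes and 3.89% of windows) and the YY1 letters in 8 (11.9%, against 2.53% and 1.40%). The E-box was in 5 genes (7.46%, against 10.2% and 7.15%). In all, 28 of the 67 genes held at least 1 motif. The median wild-type change was 0.35 log2 units in genes with the NRF1 letters and 0.53 in those without, 0.30 and 0.55 for GABP, 0.94 and 0.48 for YY1, and 0.97 and 0.50 for the E-box. These counts describe letters in a short window and show no binding.

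Only 4 genes fell in wild-type cells, and the same 4 fell in null cells. Mrpl34, a very small protein that lies against the ribosomal RNA, read 9.48, 9.68 and 9.60 without peptide and 8.21, 8.65 and 8.46 with it in wild-type mice. In null mice it read 9.48, 9.61 and 9.48, then 8.77, 8.64 and 8.71. It fell by 1.14 log2 units in wild-type cells (2.21-fold, SE 0.11, limma adjusted p = 3.8e-06) and by 0.82 in null cells (1.76-fold), and the arrays with and without peptide did not overlap.

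Mrpl58 (also known as Ict1), which can release stalled chains as a peptidyl-tRNA hydrolase, fell by 0.69 and 0.66. Its other probe set was dim, at 3.63 in unstimulated wild-type cells, and changed by 0.07 and 0.05, so the fall rests on 1 probe set. Mrpl14 fell by 0.58 in both genotypes. Mrps16, a counterpart of a bacterial protein at the body of the small subunit, fell by 0.57 and 0.51 from signals of 10.37, 10.46 and 10.50 to 9.78, 9.98 and 9.84 in wild-type mice. Among small-subunit genes the next most negative changes were those of Mrps35 (-0.06 and -0.14) and Mrps34 (0.02 and -0.08), and neither was called.

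Genes with bacterial counterparts and genes particular to mitochondria both held rising members. For comparison, 15.1% of all genes rose in wild-type cells. In the large subunit 22 of 29 genes with a bacterial counterpart rose in wild-type cells (median change 0.57 log2 units), as did 10 of 18 mitochondria-specific genes (0.38). In the small subunit the counts were 13 of 17 (0.62) and 9 of 12 (0.49). Mrps28 was counted with the latter, although structure-based names relate it to bacterial S1. Mrps36 is now known as a component of the 2-oxoglutarate dehydrogenase complex and not of the ribosome, and it rose by 0.66 in wild-type and 0.71 in null cells. Of the probe sets with the highest signal in unstimulated wild-type cells, Mrpl24 (10.97) and Mrpl39 (10.50) were not called and Mrps14 (10.63) rose by 0.55; those with the lowest, Mrps27 (6.34), Mrpl1 (7.20) and Mrpl37 (7.35), rose by 1.14, 0.70 and 1.00.

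The 42 genes with several probe sets had 80 probe sets besides the one used. In wild-type cells 36 of these were called the same way as the one used, 0 were called the opposite way, 35 pairs had only 1 of the probe sets called and 9 pairs had neither. In null cells the counts were 32, 0, 30 and 18. Uncalled probe sets could differ in sign from the one used, as for Mrpl58.

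In null cells 48 of the 76 genes rose, 29 of the large and 19 of the small subunit, and 4 fell. The shares of all genes that rose and fell there were 12.5% and 19%. The median change was 0.35 log2 units for the large subunit and 0.49 for the small subunit, against -0.02 for all genes. In both genotypes 47 genes were called higher. The shares of all genes called higher in both genotypes, or in 1 alone, were not counted. Mrpl13, Mrpl28, Mrpl45, Mrpl9, Mrps25, Mrps33 and Mrps9 were called higher in wild-type cells alone, with wild-type changes of 0.28 to 0.47, and Mrpl52 in null cells alone (0.38, against 0.18 in wild-type cells). A call in 1 genotype alone is no difference between genotypes, and the difference itself passed for none of these 8 genes. The changes in wild-type and null cells, which come from separate arrays, had a Pearson r of 0.981 over the 76 genes and 0.945 over all genes, given as a description across genes of arrays normalized together.

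**Figure D3:**
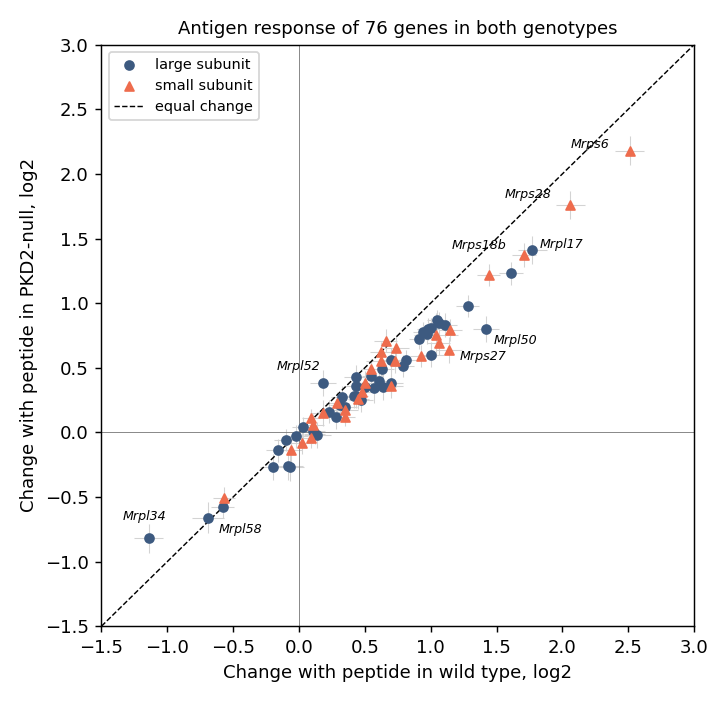
Change with peptide in PKD2-null cells (y axis) against that in wild-type cells (x axis), both in log2 units, for the 76 genes; circles are large-subunit and triangles small-subunit genes, grey bars are standard errors, and the dashed line marks equal change. The points follow a line through 0 that is shallower than the dashed line, with Mrpl50 and Mrps27 among those farthest below it.

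No single gene of the 76 passed the test of the difference between the effects. Of the 54 genes called higher in wild-type cells, 51 (94.4%) had a smaller change in null cells, and so had 85.4% of all 2754 genes called higher there. The choice of genes by their wild-type rise itself favours a smaller null change, and nothing is read from these shares. Of all genes, 0.0055% were called for a difference between the effects (null minus wild type), which is 1 gene. Among the 76 genes 0 were called by limma at a smallest adjusted p of 0.44, 17 (22.4%, against 7.71% of all genes) had an unadjusted p under 0.05, and 64 had a negative difference, against 55.2% of all genes. When the probe sets of a gene were averaged, 51 were negative and 25 positive. The median difference was -0.16 log2 units for the large subunit, -0.17 for the small subunit and -0.02 for all genes. Where the wild-type rise was at least 1 log2 unit (16 genes), the null change was 0.559 to 0.867 of it, with a median of 0.782, and the median over all 1031 genes with such a rise was 0.817. These genes too were chosen by their wild-type change.

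Mrpl50 had the smallest p for the difference (-0.62 log2 units, SE 0.14, limma adjusted p = 0.44). It rose by 1.33, 1.52 and 1.41 in the 3 wild-type mice and by 0.62, 0.80 and 0.97 in the 3 null mice, which do not overlap. The other probe set of Mrpl50 gave a difference of -0.17 (limma adjusted p = 0.84), and its rises overlapped, with 1.49, 1.28 and 1.58 in wild-type mice and at most 1.38 in null mice. Next came Mrps27 (-0.50), Mrps10 (-0.36), Mrpl12 (-0.38) and Mrps18a (-0.37), with limma adjusted p between 0.51 and 0.58. The second probe set of Mrps10, which was dim, gave a difference of the opposite sign (0.54, limma adjusted p = 0.76).

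Per mouse, the mean change over the 76 genes was 0.57, 0.56 and 0.55 log2 units in wild-type mice and 0.38, 0.33 and 0.50 in null mice. The null mice were thus lower and more spread (0.40 ± 0.085 against 0.56 ± 0.011, SD, n = 3). The large-subunit mean was 0.49 ± 0.018 in wild-type and 0.33 ± 0.087 in null mice, and the small-subunit mean was 0.69 ± 0.031 and 0.52 ± 0.082. No test was made on these means.

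Without peptide, 0 of the 76 genes differed between null and wild-type cells at an adjusted p under 0.05 in limma, where 0.044% of all genes did, and 15 (19.7%, against 10.6% of all genes) had an unadjusted p under 0.05. Of the 76, 69 read higher in null cells, against 52.1% of all genes, and the median difference was 0.12 log2 units in either subunit and 0.01 over all genes. The 76 genes share the same arrays, so these are not independent readings. Array means over the 76 genes were 8.95, 9.04 and 8.98 in wild-type mice and 9.13, 9.14 and 9.03 in null mice, which overlap. After a further quantile normalization 59 of the 76 genes read higher in null cells. The smallest p values belonged to Mrps10 (0.29 log2 units, limma adjusted p = 0.29), Mrps2 (0.26), Mrps18a (0.26), Mrps35 (0.24) and Mrps18b (0.25). Mrps2, named for its small p, read 7.76, 7.78 and 7.76 in wild-type mice against 8.02, 8.03 and 8.03 in null mice (limma adjusted p = 0.4). These values do not overlap, but their difference lies near the largest of the 76 (0.29) and above the median of 0.12.

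With peptide, again 0 of 76 genes were called between genotypes in limma (1.64% of all genes were), and 12 (15.8%, against 17.6% of all genes) had an unadjusted p under 0.05. Of the 76, 49 read lower in null cells, against 56.5% of all genes, with a median of -0.05. A further quantile normalization made this 58. Mrpl50 came first (-0.40 log2 units, SE 0.10, limma adjusted p = 0.092), followed by Mrps25 (-0.28), Mrpl32 (-0.18), Mrpl54 (-0.24) and Mrpl1 (-0.24), all with a limma adjusted p of at least 0.21. The other Mrpl50 probe set differed by -0.16 (limma adjusted p = 0.48).

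Markers of other cell types differed with genotype on the same arrays, the B cell list among them. Without peptide all 11 read higher in null cells with 0 called (median difference 0.66 log2 units), and with peptide 10 of 11 read higher with 3 called (0.68). The means of that list ran from 8.86 to 8.94 in wild-type and from 9.34 to 10.02 in null mice without peptide, and from 8.21 to 8.40 and from 8.70 to 9.44 with it. The lowest of the 11, Pax5, read 5.12 to 5.50. With peptide the list fell by 0.61 ± 0.062 in wild-type and 0.61 ± 0.031 in null mice. The 4 plasma cell markers had a median difference of 0.99 without peptide (0 called) and 0.86 with it (1 called, Sdc1). The 3 erythroid markers averaged 5.15 ± 0.58 in wild-type and 4.12 ± 0.18 in null cells without peptide, with 0 called. Their differences ran from -2.82 to -0.08 with a median of -0.20, so the gap in means rests mostly on 1 gene. Of 8 myeloid and dendritic markers 8 read higher in null cells without peptide and 0 were called. All 3 natural killer (NK) cell markers read lower in null cells without peptide, with 0 called (median difference -0.04). With peptide 2 of the 3 read lower and 1 higher, and Klrd1 was called lower (-0.92, limma adjusted p = 0.027). The part of these cells in the values of the 76 genes was not tested.

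Proteins of the mitochondrial ribosome that have other names behaved in part like the named ones. Of 4 measured, Ptcd3 (1.11 log2 units in wild-type, 0.96 in null cells), Gadd45gip1 (0.91 and 0.53) and Chchd1 (0.78 and 0.62) rose. Dap3, a GTP-binding protein of the small subunit, was not called (-0.11 and 0.02).

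Genes that assemble the mitochondrial ribosome or modify its RNA were mixed. In wild-type cells 11 of 28 rose (39.3%, against 15.1% of all genes) and 4 fell (14.3%, against 20.4%), with a median change of 0.12. In null cells 10 rose (35.7%, against 12.5%) and 1 fell (3.57%, against 19%). The leading rises were those of Mrm3, a methyltransferase of the large ribosomal RNA (1.86 and 1.24), Rcc1l (1.75 and 1.38), Fastkd2, an RNA-binding protein (1.67 and 1.45), and Noa1, a GTPase (1.47 and 1.16). Another methyltransferase of the same RNA, Mrm2, fell (-0.53 and -0.43).

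Of 13 mitochondrial translation factors and related genes, 7 rose (53.8%, against 15.1% of all genes) and 2 fell (15.4%, against 20.4%) in wild-type cells. Null cells had 6 rises (46.2%, against 12.5%) and 2 falls (15.4%, against 19%). Lrpprc, which stabilizes mitochondrial messenger RNA, rose by 1.49 and 1.26, and its partner Slirp by 0.97 and 0.77. The elongation factor Gfm1 rose by 1.37 and 1.03, and the recycling factor Mrrf by 1.01 and 0.68. Oxa1l, which inserts new chains into the inner membrane, fell by 0.47 and 0.56, and the initiation factor Mtif3 fell by 0.41 and 0.57.

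The list of mitochondrial transcription and its nuclear regulators held 14 genes. Wild-type cells had 6 rises (42.9%, against 15.1% of all genes) and 3 falls (21.4%, near the 20.4% of all genes). Null cells had 7 rises (50%, against 12.5%) and 1 fall (7.14%, against 19%). Myc rose by 4.02 and 3.60, Pprc1, a coactivator of NRF1, by 2.24 and 1.96, Gabpb1, the partner subunit of GABP, by 1.67 and 1.21, and the elongation factor Tefm by 1.45 and 1.24. Gabpa, the DNA-binding subunit of GABP, was not called (0.18 and 0.04), nor was Tfam, which packages mitochondrial DNA (0.13 and 0.15). Nrf1 was not called in wild-type cells (0.32) and rose in null cells (0.43), and Yy1 fell by 0.29 in both.

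The cytosolic ribosome gave other counts. Of 46 genes of cytosolic ribosomal proteins with a probe set of their own, 4 rose (8.7%, against 15.1% of all genes) in wild-type cells. In limma 0 fell (against 20.4%), and the median change was -0.03 log2 units. The counts were the same in null cells, where 12.5% of all genes rose and 19% fell. Of 81 nuclear genes of the respiratory chain and ATP synthase, wild-type cells had 21 rises and 11 falls (median 0.11) and null cells 16 and 12 (0.09). As shares these were 25.9% and 13.6% in wild-type cells and 19.8% and 14.8% in null cells. The means per mouse ran from 0.04 to 0.07 for the cytosolic proteins and from 0.02 to 0.15 for the respiratory chain, all below the lowest mean of either subunit of the mitochondrial ribosome. No test compared these lists, and the cytosolic genes had a mean signal of 12.38 without peptide in wild-type cells against 8.99 for the 76 genes.

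**Figure D4:**
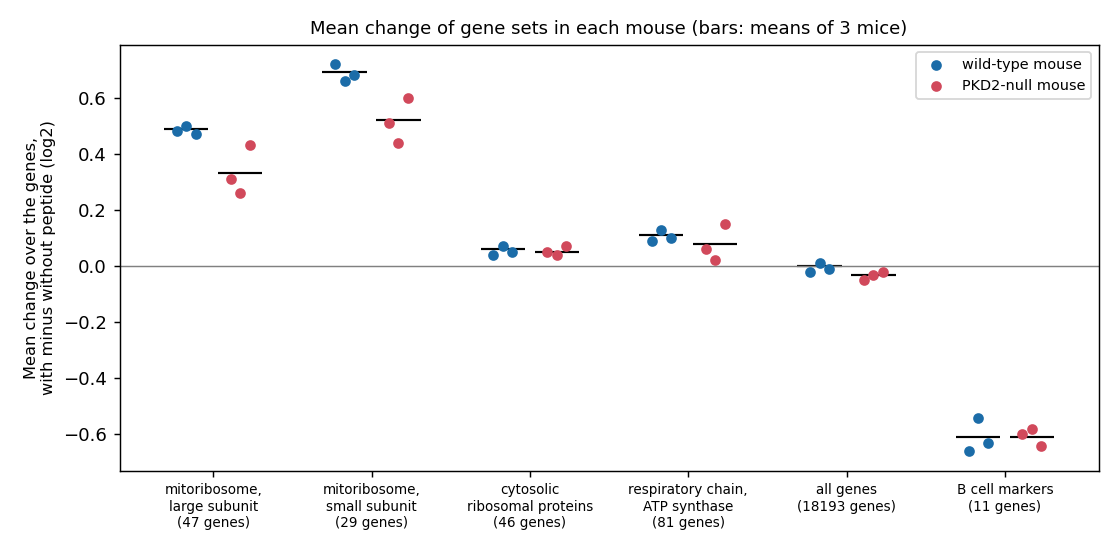
Mean change over the genes of a set, with minus without peptide (log2), in each of the 3 wild-type (blue) and 3 PKD2-null (red) mice; black bars are means of 3 mice. Both subunits of the mitochondrial ribosome lie at 0.26 to 0.72 in every mouse, the cytosolic ribosomal proteins and the respiratory chain at 0.02 to 0.15, and the B cell markers at -0.66 to -0.54.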

How the data were processed

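Total RNA of 12 cultures was run on Affymetrix arrays, and the log2 values were used as deposited. Per the submitters' processing notes the software was Affymetrix Expression Console 1.1; how it normalized the arrays is not given in the sources used. Values ran from 2.427 to 15.07, sorted arrays lay within 0.253 of each other, and 0 array pairs held identical values. Of 45101 probe sets, 64 controls were left out, and 34945 of the other 45037 had 1 symbol in the platform annotation, 932 had several and 9160 had none. A probe set has no counts, so the number of arrays limits the precision.

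The 12 arrays entered 1 fit of 4 group means (limma 3.58.1, R 4.3.3, lmFit and eBayes, two-sided, 8 residual and 4.18 prior degrees of freedom), read for 5 comparisons. The fitting code was tested on simulated data. The labels give each mouse a number, which pairs its 2 arrays. Deviations from the group means correlated at 0.116 to 0.577 within a mouse and at -0.399 to 0.129 between mice. These ranges overlap, and deviations within a group cancel out, so positive values within a mouse lower those between mice.

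The members and lists were chosen with earlier results of these data known, so lists are given by counts and medians. The genes named are the 6 largest rises and 3 most negative changes per subunit in each stimulation, up to 5 smallest p in the other comparisons, the highest and lowest signals, the S18-related genes, and up to 4 called genes per list. Genes named beside these, such as Mrpl10, Mrpl11, Mrps36 and Tfam, were chosen for their known roles after their values were seen. Some listed genes, among them Aurkaip1, Mtrf1 and Taco1, were not used here. Promoter sequences are from RefSeq (GRCm38.p6). Alternatives were the probe set rule, a filter on dim probe sets (a group mean of at least 6), quantile normalization, centring, the mouse as a block, separate fits, an intensity trend with a robust prior, the placement of Mrps18a and Mrps30, and leaving out each array.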

Additional observations from a re-analysis of the deposited data

How the results depend on the processing

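With the mouse as a replicate block, wild-type cells had 54 rises and 4 falls, all shared with the fit without it. Null cells had 46 rises and 6 falls. The block moved no count by over 1.5 times and left 0 genes called between genotypes. It also left 0 called for the difference between the effects, at a smallest limma adjusted p of 0.16 in place of 0.44. With a filter on dim probe sets 1 gene was called between genotypes with peptide, Mrpl50 (-0.40, limma adjusted p = 0.048, and 0.048 to 0.28 over the alternatives). Without probe sets named s_at, x_at or a_at, 62 genes remained, 2 fell in place of 4 in either genotype (Mrps16 has no other probe set and dropped out), Mrpl58 changed by 0.07 and 0.05 in place of its falls, and Mrpl17 was not called (0.11 and 0.13), both read from dim probe sets; the cause was not tested. That rule gave wild-type medians of 0.43 (large) and 0.69 (small) and a null small-subunit median of 0.60. Averaging the probe sets of each gene gave wild-type medians of 0.41 and 0.47, quantile normalization 0.42 and 0.55, and moving Mrps18a and Mrps30 to the large subunit 0.50 and 0.55; the cause was not tested. Leaving out 1 array at a time gave wild-type medians of 0.44 to 0.49 (large) and 0.55 to 0.64 (small) and null medians of 0.30 to 0.39 and 0.42 to 0.53, with 30 to 32 large-subunit and 20 to 22 small-subunit rises in wild-type cells and 23 to 29 and 18 to 19 in null cells. Of the values of single named genes under these alternatives, 781 kept their side of the threshold, with direction compared only for called values. Of the rest, 2 were reversed in sign, 2 lost their call and 1 gained a call. Background correction could not be varied from the deposited values, and slide and scan batches are not in the files used here. With 3 mice a group at 1 dose and 1 time, small differences between genotypes are not detectable gene by gene.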
